A study of Homo sapiens with 9 samples.

Results

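C4BPB encodes the beta chain of C4b-binding protein, a soluble inhibitor of the classical and lectin pathways of complement, and it was examined here with 8 further regulators and proteases of the same cascade: C4BPA, CD46, CD55, CD59, CFI, C1S, C1R and SERPING1. C4BPB was chosen because its level in RAI2 cells was lower than in vector cells in these same arrays, and the others were added for their function, with results of these arrays known. All probes carrying 1 of the 9 symbols were taken, which gave 15 probes for 8 of the 9 genes. The probe table used here names no probe for CD46, which is not analysed here. Of the 8 genes, 5 (C4BPB, CD55, CD59, CFI and C1R) had a probe above background on at least 3 of 9 arrays and entered the test, among 12422 genes in all.

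The samples were MDA-MB231 cells, an established human breast cancer line with mesenchymal features, transduced with retrovirus from φNX-ampho packaging cells and kept for 4 days in 2 µg/ml puromycin. In 3 arrays the cells overexpressed RAI2 (retinoic acid induced 2, a protein known to bind the CtBP corepressors), in 3 they overexpressed a form named RAI2-4A, whose change the labels do not describe, and in 3 they carried the control vector. RNA was hybridised to single-colour Illumina bead arrays, and the values are intensities on a linear scale. Whether the 3 replicates of a group came from different cultures is not given in the labels, and the p-values cover no more than the variation among these arrays, which may be technical. In such bulk RNA, fewer cells carrying a transcript and less of it per cell cannot be told apart.

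Complement is a cascade of plasma proteases that marks cells for uptake or lyses them. C1q with the proteases C1r and C1s starts the classical pathway by cleaving C4 and C2, and the resulting convertase cleaves C3. Host cells restrain it at several steps. C1 inhibitor (SERPING1) removes C1r and C1s, C4b-binding protein, CD46 and CD55 act on the convertases, factor I (CFI) cleaves C4b and C3b with their help, and CD59 blocks the final pore. The liver is the main source of the soluble regulators, while CD46, CD55 and CD59 lie on most cells, tumour cells included.

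The background threshold of each array, set from its own distribution, was an intensity of 99.8 to 104, and 20099 to 22684 probes exceeded it. RAI2 read 598 ± 36.8 in RAI2 cells, 1059 ± 101 in RAI2-4A cells and 90.1 ± 4.97 in vector cells (SD, n = 3 each), with 0 vector arrays above background. The presence of a transgene thus matched the labels on all 9 arrays. The probe was not shown to tell RAI2 from RAI2-4A, so which form an array carried was not checked. The second RAI2 array, the second RAI2-4A array and the first vector array stood apart from their groups in a common direction over the tested genes (residual correlations of 0.437 to 0.538), and results that rest on them are also given without these 3. Other pairs reached like values, as vector replicate 2 with RAI2-4A replicate 3 (0.469) and RAI2 replicate 1 with RAI2-4A replicate 1 (0.445). Of 12 genes that mark MDA-MB231, 11 were above background on all 9 arrays, and of 6 genes known to be low in the line ESR1 and PGR were above it on none, ERBB2 and EPCAM on all 9. TGFBI, among the 11, rose by 1.36 log2 units in RAI2 minus vector past an adjusted p of 0.05 in limma. It averaged 835 ± 104 in RAI2 and 338 ± 27.8 in vector cells (SD, n = 3 each). Of 9 hepatocyte markers with a probe, 4 (APOB, APOH, FGB and SERPINC1) were above background on none and 1 (ALB) on all 9 arrays, and the summed intensity of the 3 tested was 353 to 374 in RAI2, 345 to 374 in RAI2-4A and 364 to 385 in vector arrays. The summed intensity of 6 leukocyte markers was 2593 to 2716 in RAI2, 2756 to 2994 in RAI2-4A and 2280 to 2480 in vector arrays, with no overlap with vector. Of the 9 with a probe, PTPRC, CD3E and LYZ were above background on none and CD14, CD68, HLA-DRA and CSF1R on all 9, and CD14 rose in RAI2 minus vector (0.88, SE 0.14, limma, adjusted p = 0.0102). The summed intensity of 5 fibroblast markers was 557 to 649 in RAI2, 667 to 695 in RAI2-4A and 601 to 642 in vector arrays, with COL1A2, LUM and PDGFRB above background on all 9 and THY1 on none. The part of these levels in the results below was not tested.

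C4BPB was measured by 2 probes, and both were above background on all 9 arrays. The brighter (ILMN_1694588, designed on NM_001017365) stood for the gene. It read 1493, 1744 and 1670 in RAI2 replicates 1, 2 and 3, and 2252, 2516 and 2304 in RAI2-4A replicates 1, 2 and 3, against 2289, 2924 and 3380 in vector replicates 1, 2 and 3. All RAI2 arrays lay below all RAI2-4A and all vector arrays, and RAI2-4A and vector overlapped only through vector replicate 1.

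In RAI2 cells C4BPB averaged 1636 ± 129, against 2864 ± 548 in vector cells (SD, n = 3 each). The difference of mean log2 values was -0.80 (SE 0.14), a level 1.74-fold lower in RAI2 cells. C4BPB was chosen on this contrast, so its difference is a description and carries no test. With single arrays left out it ran from -0.96 to -0.67, and with those 3 arrays left out together it came to -1.0.

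In RAI2-4A cells C4BPB averaged 2357 ± 140, against 2864 ± 548 in vector cells (SD, n = 3 each). The difference was -0.27 log2 units (SE 0.14, limma, adjusted p = 0.994), with a 95% interval of -0.56 to 0.03. Both constructs were compared with the same vector arrays, so the contrasts are not independent. It came to -0.42 when vector replicate 1 was left out, to -0.14 when vector replicate 3 was, and to -0.47 when the 3 arrays above were (limma, adjusted p = 0.350).

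RAI2 and RAI2-4A cells were then compared directly, which asks whether the forms differ in C4BPB. The level was 1636 ± 129 in RAI2 and 2357 ± 140 in RAI2-4A cells (SD, n = 3 each), a log2 difference of -0.53 (SE 0.14, 95% interval -0.83 to -0.24) that did not pass over all genes (limma, adjusted p = 0.222). Same-numbered arrays of these groups deviated together. With the replicate number as a block in a fit of these groups alone, C4BPB was lower in RAI2 cells past the threshold (SE 0.09, limma, adjusted p = 0.0187). This pairing was read from these same arrays and not from the labels, so calls made with this block, here and below, are descriptions. With the block over all 3 groups, whose vector numbers did not pair, C4BPB did not pass (limma, adjusted p = 0.164). It also passed with array weights (limma, adjusted p = 0.0380), with only these groups in the fit (0.0457) and without vector replicate 1 (0.0349), while the highest adjusted p over the alternatives was 0.912, with the mean of both probes. This contrast shares its RAI2 arrays with the one on which C4BPB was chosen. The RAI2 transcript itself was lower in RAI2 than in RAI2-4A cells, by a log2 difference of -0.85 (SE 0.11, limma, adjusted p = 0.00278).

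**Figure D1:**
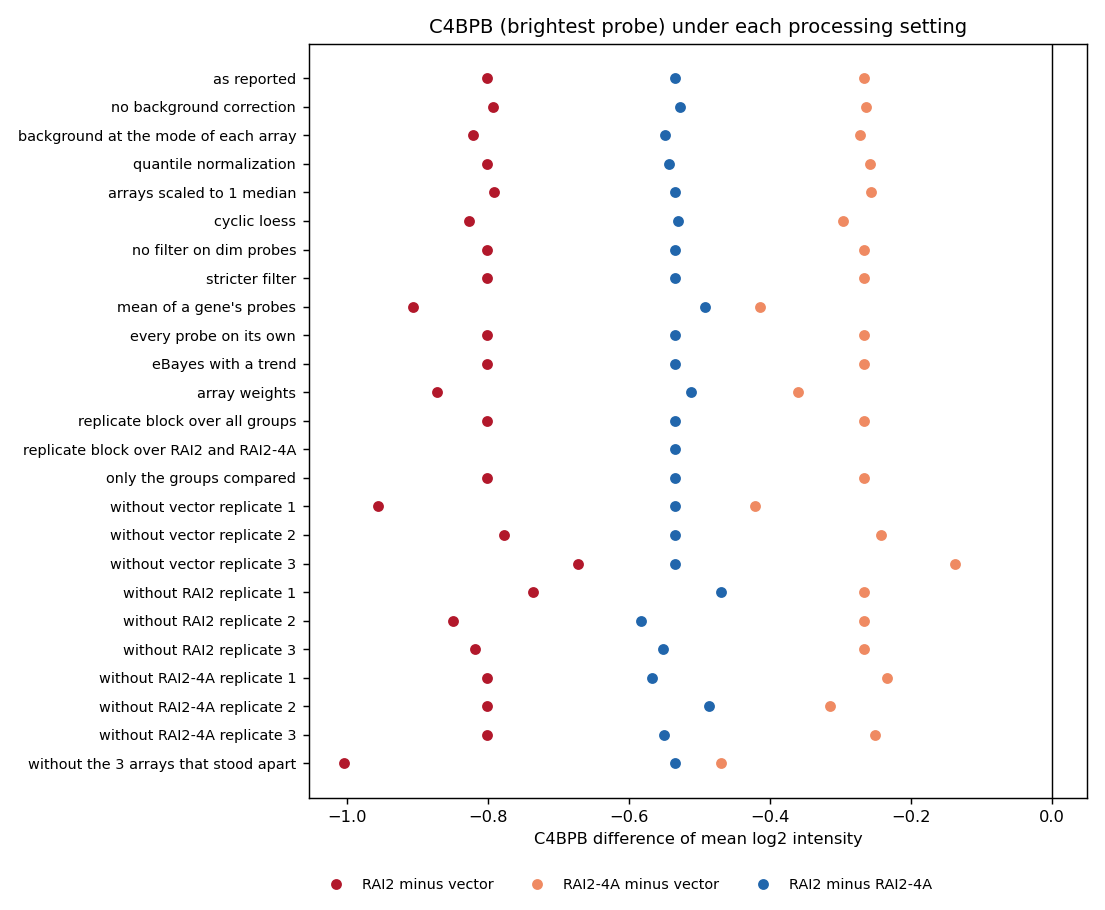
Difference of mean log2 intensity of C4BPB (x axis) under each processing setting (rows), for RAI2 minus vector, RAI2-4A minus vector and RAI2 minus RAI2-4A. The brightest probe is shown, except in the row for the mean of a gene's probes, which averages both C4BPB probes. All points lie below 0; the first ran from -1.0 to -0.67, the second from -0.47 to -0.14 and the third from -0.58 to -0.47.

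The other C4BPB probe (ILMN_2347789, designed on NM_001017367) scattered more. It read 354, 537 and 432 in RAI2 replicates 1, 2 and 3, and 420, 997 and 483 in RAI2-4A replicates 1, 2 and 3, against 1586, 592 and 665 in vector replicates 1, 2 and 3. In each group the highest array was the one that stood apart over all genes. The RAI2 arrays again lay below all vector arrays, by -1.01 log2 units (SE 0.40), a value given without a test. It was -0.56 without vector replicate 1 and -0.72 without the 3 arrays. For RAI2-4A minus vector this probe gave -0.56 (SE 0.40, limma over all kept probes, adjusted p = 0.992), and -0.10 without vector replicate 1. For RAI2 minus RAI2-4A it gave -0.45 (SE 0.40, adjusted p = 1 in limma over all kept probes), and -0.05 without RAI2-4A replicate 2. Across the 9 arrays the probes correlated at r = 0.452 on the log2 scale, a description over arrays that share their groups.

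**Figure D2:**
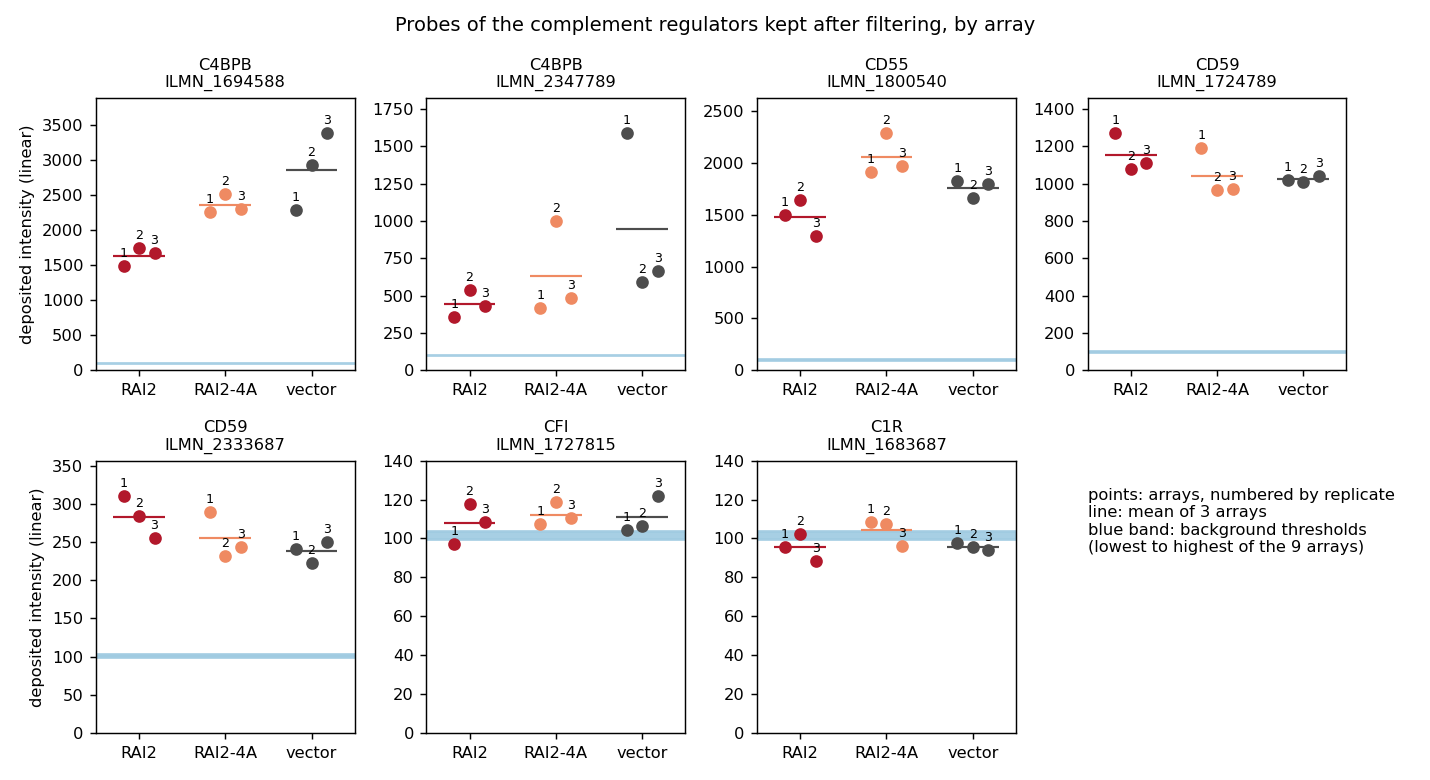
Deposited intensity (linear scale from 0) of the 7 kept probes of C4BPB, CD55, CD59, CFI and C1R in each array, with RAI2, RAI2-4A and vector from left to right, replicates numbered, a line at each mean of 3 arrays and a blue band at the background thresholds of 99.8 to 104. The RAI2 arrays lie below all others on the brighter C4BPB probe and below the vector arrays on the other, and CFI and C1R lie near the thresholds.

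C4BPB and C4BPA are next to each other on chromosome 1, within the cluster of complement regulators that also holds CD55, CR2, CR1, CR1L and CD46. C4BPA, the alpha chain that carries most of the C4b-binding surface, has 1 probe, and it was above background on 0 of 9 arrays. It read 81.7, 83.3 and 82.1 in RAI2, 91.2, 70.8 and 92.4 in RAI2-4A, and 79.9, 85.6 and 87.9 in vector replicates 1, 2 and 3. All values lay below the thresholds, so no difference is given for it. The beta chain, which binds the anticoagulant protein S, was therefore the only chain of the protein above background on these arrays.

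The promoter windows of both chains are shown because neighbouring genes of 1 protein differed in whether they were above background, and because C4BPB has several annotated starts. RefSeq windows of GRCh38.p14, from 250 bases before to 50 after a start, were found for 7 of the 9 genes, in 14 windows. The first 2 of the 3 C4BPB windows (plus strand, chr1:207088610-207088909 and chr1:207088989-207089288) and the C4BPA window (plus strand, chr1:207103983-207104282) read 5′ to 3′ as follows, in lower case with motif matches in capitals.
C4BPB first start: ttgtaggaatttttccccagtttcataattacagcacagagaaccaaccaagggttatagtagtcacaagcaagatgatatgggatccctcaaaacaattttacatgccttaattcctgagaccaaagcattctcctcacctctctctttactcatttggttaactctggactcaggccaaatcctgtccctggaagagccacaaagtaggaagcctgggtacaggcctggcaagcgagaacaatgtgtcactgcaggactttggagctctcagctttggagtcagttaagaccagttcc
C4BPB second start: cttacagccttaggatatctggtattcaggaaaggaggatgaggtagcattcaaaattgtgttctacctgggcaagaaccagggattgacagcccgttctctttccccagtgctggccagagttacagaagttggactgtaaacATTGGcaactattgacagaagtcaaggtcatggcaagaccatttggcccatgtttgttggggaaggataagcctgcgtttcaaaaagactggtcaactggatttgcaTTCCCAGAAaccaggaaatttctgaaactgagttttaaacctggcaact
C4BPA start: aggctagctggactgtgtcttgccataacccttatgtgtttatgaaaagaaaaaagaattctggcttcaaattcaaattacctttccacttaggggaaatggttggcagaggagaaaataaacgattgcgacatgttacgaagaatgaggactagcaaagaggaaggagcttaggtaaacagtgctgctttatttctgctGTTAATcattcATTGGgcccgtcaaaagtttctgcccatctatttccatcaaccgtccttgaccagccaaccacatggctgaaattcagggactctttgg

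Searched on both strands were the E-box CACCTG of ZEB and SNAI repressors (in 20.6% of 35114 promoter windows of the same length), the STAT palindrome TTCNNNGAA (7.66%), the CCAAT box CCAAT (34.6%), the TATA box TATAAA (11.5%) and the HNF1 site core GTTAAT (6.88%). The first C4BPB window held 0 matches to any of them. The second held a STAT palindrome, starting at position 2 after the start, and an inverted CCAAT box. The third C4BPB window overlaps the second and holds the same matches. The C4BPA window held an HNF1 site core and an inverted CCAAT box. The E-box was in 0 of the 3 C4BPB windows and 0 C4BPA windows. These matches describe letters and not binding sites, and which start the arrays' cells used was not tested.

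The other soluble regulators and the proteases lay near or under the thresholds. CFI, the protease that needs C4b-binding protein, CD46 or factor H as cofactor, was above background on 8 of 9 arrays. It read 97.1, 118 and 109 in RAI2, 107, 119 and 111 in RAI2-4A, and 104, 106 and 122 in vector replicates 1, 2 and 3, and the 3 groups overlapped. Its difference was 0.02 for RAI2-4A minus vector (SE 0.12, 95% interval -0.24 to 0.29, limma, adjusted p = 0.994) and -0.08 for RAI2 minus RAI2-4A (SE 0.12, limma, adjusted p = 1). C1R, the first protease of the classical pathway, has 4 probes, of which 1 (ILMN_1683687) was above background on 3 arrays, 1 in RAI2 and 2 in RAI2-4A cells. It read 95.7, 102 and 88.6 in RAI2, 108, 108 and 96.3 in RAI2-4A, and 97.5, 95.7 and 94.2 in vector replicates 1, 2 and 3. It differed by 0.15 for RAI2-4A minus vector (SE 0.11, limma, adjusted p = 0.994), and with no filter on dim probes, where another probe was the brightest, by -0.10.

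C1S, the protease that cleaves C4 and C2, was above background on 0 of 9 arrays on either of its 2 probes, which read 76.7 to 98.3 and 86.7 to 100.04. SERPING1, which inactivates both proteases, was above background on 1 of 9 arrays on 1 of its 2 probes (RAI2-4A replicate 3, at 108) and on 0 arrays on the other. In all, 8 of the 15 probes were above background on fewer than 3 arrays and had intensities of 70.8 to 126. The value of 126 was that of C1R probe ILMN_1656242 in RAI2 replicate 1, while the other RAI2 arrays read 88.3 and 92.5 there.

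The membrane regulators CD55 and CD59, which are held in the membrane by glycosylphosphatidylinositol (GPI) anchors, were far above background on every array. CD55, which speeds the decay of the convertases, read 1495, 1645 and 1292 in RAI2 replicates 1, 2 and 3, and 1910, 2285 and 1975 in RAI2-4A replicates 1, 2 and 3, against 1830, 1663 and 1794 in vector replicates 1, 2 and 3. The RAI2 arrays lay lowest and the RAI2-4A arrays highest, with no overlap between any pair of groups. CD55 averaged 1477 ± 177 in RAI2, 2057 ± 200 in RAI2-4A and 1762 ± 87.5 in vector cells (SD, n = 3 each).

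For RAI2 minus RAI2-4A the CD55 difference was -0.49 log2 units (SE 0.12, 95% interval -0.74 to -0.23, limma, adjusted p = 0.171). With the replicate number as a block over these groups alone it passed (SE 0.09, limma, adjusted p = 0.0426), with the block over all 3 groups it did not (0.254), and over the other alternatives its adjusted p in limma ran up to 0.680. Against vector the signs of CD55 were opposite. RAI2 minus vector was -0.26 (SE 0.12), given without a test because C4BPB was chosen on that contrast and the others were added with its results known, and RAI2-4A minus vector was 0.22 (SE 0.12, 95% interval -0.03 to 0.48, limma, adjusted p = 0.994).

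CD59, which blocks assembly of the membrane attack complex, has 2 probes. The brighter read 1269, 1081 and 1109 in RAI2, 1192, 966 and 972 in RAI2-4A, and 1019, 1009 and 1043 in vector replicates 1, 2 and 3. The RAI2 arrays lay above the vector arrays, and RAI2-4A overlapped both. RAI2 minus vector was 0.17 (SE 0.11, no test), RAI2-4A minus vector was 0.02 (SE 0.11, 95% interval -0.23 to 0.27, limma, adjusted p = 0.994) and RAI2 minus RAI2-4A was 0.15 (SE 0.11, limma, adjusted p = 1). The other CD59 probe read 255 to 310 in RAI2, 231 to 289 in RAI2-4A and 222 to 251 in vector arrays, with differences of 0.27, 0.10 and 0.17 in the same order (SE 0.12 each).

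**Figure D3:**
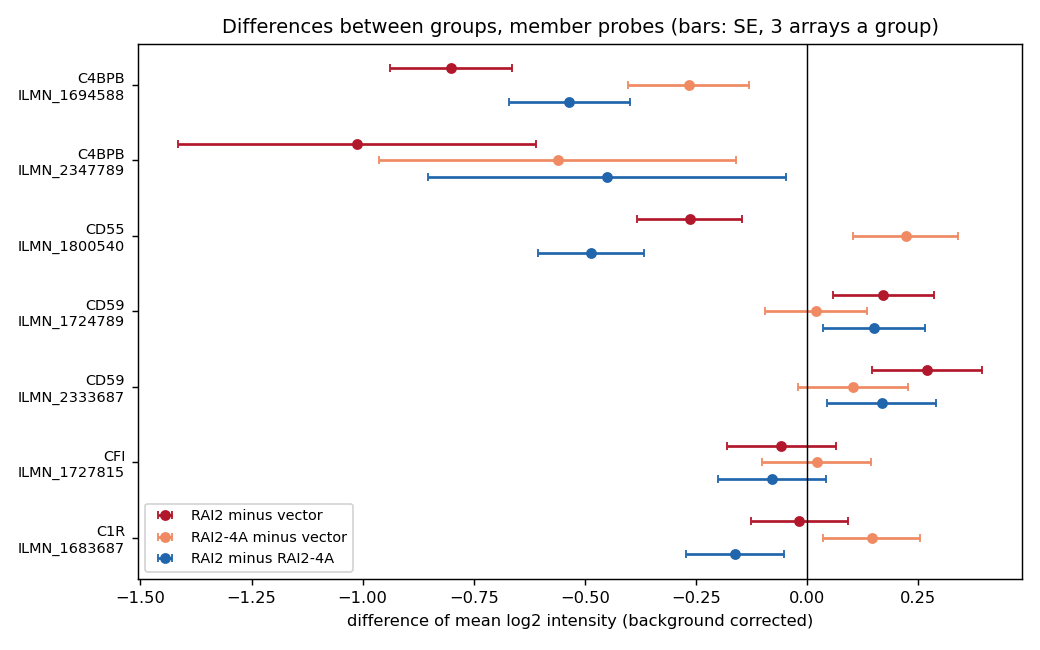
Differences of mean log2 intensity (x axis) for the 7 kept probes, with bars of 1 SE from 3 arrays a group, for RAI2 minus vector, RAI2-4A minus vector and RAI2 minus RAI2-4A. Both C4BPB probes lie below 0 in every contrast, CD55 lies on opposite sides of 0 for the constructs against vector, and CD59 differs by 0.02 to 0.27.

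Counted over the 5 tested genes, C4BPB alone was called in RAI2 minus vector, where 0.419% of all genes were called, 0.322% higher and 0.0966% lower. The RAI2 arrays lay above all vector arrays for 1 of the 5 (CD59), against 6.27% of all genes, and below them for 2 (C4BPB and CD55), against 3.78%. An unadjusted p under 0.05 in limma was reached there by 5.90% of all genes. The genes were chosen with this contrast in view, so nothing is read from these counts.

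In RAI2-4A minus vector 0 of 5 were called by limma, against 0.0886% of all genes (0.0644% higher and 0.0242% lower), and 0 of 5 had an unadjusted p under 0.05 in limma, against 3.99%. The RAI2-4A arrays lay above all vector arrays for 1 of the 5 (CD55), against 4.87% of all genes, and below them for 0, against 3.12%.

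In RAI2 minus RAI2-4A 0 of 5 were called by limma, against 0.378% of all genes (0.193% higher and 0.185% lower), and 2 (C4BPB and CD55) had an unadjusted p under 0.05 in limma, against 4.84%. These 2 were also those whose RAI2 arrays lay below all RAI2-4A arrays, against 5.51% of all genes, while 0 lay above, against 5.82%. With the replicate block over RAI2 and RAI2-4A alone both were called lower, and with that over all 3 groups neither was (limma, adjusted p = 0.164 and 0.254). In the fit of RAI2 and RAI2-4A alone 0.789% of all genes were called, 0.467% higher and 0.322% lower. RAI2 minus RAI2-4A shares its RAI2 arrays with the contrast C4BPB was chosen on, so nothing is read from its counts either. The median difference of the 5 genes was -0.06, 0.02 and -0.16 for RAI2 minus vector, RAI2-4A minus vector and RAI2 minus RAI2-4A, and that of all genes 0.02, 0.02 and 0.00.

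Elsewhere in the classical and lectin pathways, 6 of 18 listed genes were tested and 1 of them, COLEC12, rose in RAI2 cells. Of all genes 0.322% were called higher in RAI2 minus vector and 0.193% in RAI2 minus RAI2-4A. COLEC12 entered the test through its RAI2 arrays alone, the group where it was high. The count for this list and the adjusted p-values of COLEC12 below are therefore descriptions. COLEC12, a membrane collectin that acts as a scavenger receptor, read 180, 141 and 134 in RAI2, 95.5, 102 and 89.5 in RAI2-4A, and 86.9, 92.2 and 78.5 in vector replicates 1, 2 and 3. It was above background on all RAI2 arrays and on 0 of the others, so its fold is a lower bound, taken against the dimmest level that still counted as above background on each array of the other group, or the probe's own level where that was higher. Against vector cells COLEC12 rose at least 1.60-fold in RAI2 cells (limma, adjusted p = 0.00590). Against RAI2-4A cells it rose at least 1.59-fold (limma, adjusted p = 0.0214). Both bounds are on the background-corrected log2 scale of the fit, where COLEC12 averaged 6.99 in RAI2, 6.18 in RAI2-4A and 5.97 in vector cells, and not on that of the deposited intensities. The first call passed under every alternative that tested the gene, which the stricter filter did not, with a highest adjusted p of 0.0339. The call against RAI2-4A was lost without RAI2 replicate 1 or 2 or RAI2-4A replicate 1 or 3 (highest adjusted p in limma 0.145), and with every probe on its own (0.0836). C1QA, a chain of the C1q recognition protein, averaged 108 ± 7.74 in RAI2, 104 ± 5.92 in RAI2-4A and 108 ± 4.16 in vector cells (SD, n = 3 each) and did not pass. In RAI2-4A minus vector C2 (-0.26) alone of the 6 reached an unadjusted p under 0.05 in limma, against 3.99% of all genes.

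Of the C3 and alternative pathway list 4 of 9 genes were tested and of the terminal pathway 1 of 7, and 0 of these passed in any contrast (limma); at an unadjusted p under 0.05 only CFB, 1 of the 4, did so, in RAI2-4A minus vector. The serine protease of the alternative pathway, CFD, averaged 386 ± 45.1 in RAI2, 356 ± 21.1 in RAI2-4A and 371 ± 53.8 in vector cells (SD, n = 3 each). CFB, which forms the alternative convertase, averaged 283 ± 30.6 in RAI2, 329 ± 60.4 in RAI2-4A and 258 ± 9.21 in vector cells. C5, cleaved at the start of the terminal pathway, averaged 232 ± 32.7 in RAI2, 232 ± 25.3 in RAI2-4A and 211 ± 35.0 in vector cells.

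Among 6 tested complement receptors and C1q-binding proteins 0 passed in any contrast (limma). An unadjusted p under 0.05 was reached by 2 (ITGAX and ITGB2) in RAI2 minus vector (5.90% of all genes), 1 (ITGB2) in RAI2-4A minus vector (3.99%) and 0 in RAI2 minus RAI2-4A (4.84%). The 6 included C1QBP and CALR, the brightest, and ITGB2, the beta chain of complement receptors CR3 and CR4, which averaged 664 ± 29.0 in RAI2, 730 ± 28.7 in RAI2-4A and 852 ± 24.0 in vector cells (SD, n = 3 each). Of 10 fluid phase and 12 membrane regulators 3 and 4 were tested, and apart from C4BPB none passed in RAI2 minus vector (limma). THBD, a membrane regulator that is also the thrombin receptor, averaged 147 ± 4.60 in RAI2, 155 ± 13.8 in RAI2-4A and 145 ± 10.0 in vector cells.

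The beta chain of C4b-binding protein carries protein S, whose gene PROS1 was tested with 8 of 10 partner genes, and 0 of the 9 passed in any contrast (limma). At an unadjusted p under 0.05 there were 2 (PROS1 and MERTK) in RAI2 minus vector (5.90% of all genes), 0 in RAI2-4A minus vector (3.99%) and 1 (PROS1) in RAI2 minus RAI2-4A (4.84%). PROS1 is named here after its values were seen. It read 694, 626 and 638 in RAI2, 590, 454 and 550 in RAI2-4A, and 395, 494 and 461 in vector replicates 1, 2 and 3, so the RAI2 arrays lay above all others. Its difference was 0.57 for RAI2 minus vector (SE 0.13, limma, adjusted p = 0.102) and 0.25 for RAI2-4A minus vector (SE 0.13, limma, adjusted p = 0.994). Over the alternatives the adjusted p of the first ran from 0.0600 to 0.491. The receptor AXL averaged 10881 ± 145 in RAI2, 11335 ± 462 in RAI2-4A and 10193 ± 1480 in vector cells, and its ligand GAS6 averaged 3416 ± 422 in RAI2, 3219 ± 437 in RAI2-4A and 3304 ± 528 in vector cells (SD, n = 3 each).

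Along chromosome 1, 13 of 23 listed genes in the region, C4BPB included, were tested. In RAI2 minus vector 1 rose, IL24, against 0.322% of all genes, besides C4BPB, which was chosen on this contrast. An unadjusted p under 0.05 in limma was reached by 3 (C4BPB, IL24 and CD55) in RAI2 minus vector (5.90% of all genes). In RAI2-4A minus vector 2 did so (IL24 and FCMR, against 3.99%), and in RAI2 minus RAI2-4A 4 (C4BPB, IL24, CD55 and PLXNA2, against 4.84%). C4BPB and CD55 were chosen with these results known. IL24, a cytokine of the IL10 family that lies 7 protein-coding genes away, read 354, 274 and 266 in RAI2, 246, 206 and 272 in RAI2-4A, and 154, 182 and 192 in vector replicates 1, 2 and 3. It rose by 0.84 log2 units in RAI2 cells (SE 0.15, limma, adjusted p = 0.0299). The call was lost without any single RAI2 or vector array (highest adjusted p in limma 0.170), with the background at the mode (0.0807), with the mean of probes (0.0529), with every probe on its own (0.107) and with the replicate block over all groups (0.0714). For RAI2-4A minus vector it differed by 0.51 (SE 0.15, limma, adjusted p = 0.814). The direct neighbours of C4BPB differed less. YOD1, before it, differed by -0.22 and PFKFB2 by -0.12 in RAI2 minus vector, and CD55, the next tested gene after it, by -0.26.

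**Figure D4:**
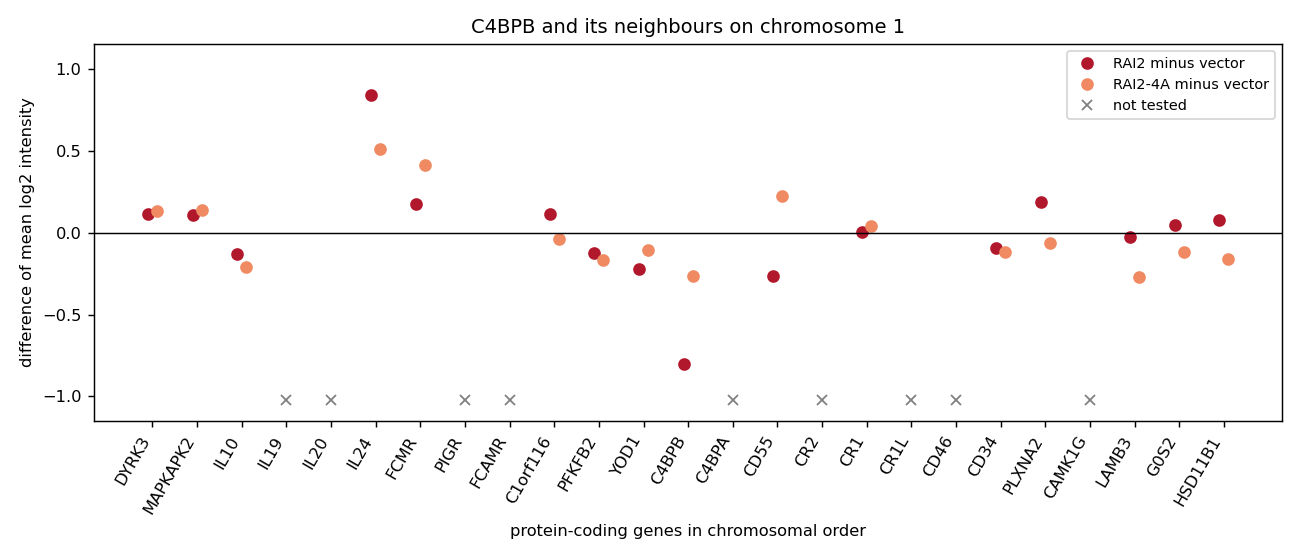
Difference of mean log2 intensity (y axis) for RAI2 minus vector and RAI2-4A minus vector of 25 protein-coding genes in their order on chromosome 1 around C4BPB, with crosses for genes that were not tested. C4BPB at -0.80 and IL24 at 0.84 lie farthest from 0 for RAI2 minus vector.

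C4b-binding protein is an acute-phase protein in the liver, and 5 of 15 listed acute-phase genes were tested. In RAI2 minus vector 1 rose, SERPINA1 (alpha-1 antitrypsin), 0 fell and 4 did not pass, with a list median of 0.37. Of all genes 0.322% were called higher there and 0.0966% lower. In RAI2-4A minus vector 0 passed (limma) and the list median was 0.38, and over all genes it was 0.02 in either contrast. At an unadjusted p under 0.05 in limma there were 3 of the 5 in each of these contrasts, which share their vector arrays, against 5.90% and 3.99% of all genes. SERPINA1 read 171, 214 and 168 in RAI2, 134, 139 and 136 in RAI2-4A, and 97.8, 97.0 and 107 in vector replicates 1, 2 and 3, in 3 groups without overlap. It was above background on 1 of 3 vector arrays and rose by 1.04 log2 units in RAI2 cells (SE 0.12, limma, adjusted p = 0.00141), with 0.97 on its other kept probe (limma over all kept probes, adjusted p = 0.0304). Its size depended on the background, as 2 of 3 vector arrays were not above it, and ran from 0.86 with no correction to 1.98 with the background at the mode. The call passed under every alternative that tested the gene, with a highest adjusted p of 0.0107. For RAI2-4A minus vector it differed by 0.54 (SE 0.12, limma, adjusted p = 0.302). SAA1, the brightest of the list, averaged 618 ± 135 in RAI2, 489 ± 156 in RAI2-4A and 310 ± 48.0 in vector cells (SD, n = 3 each) and did not pass. For RAI2 minus vector this SAA1 probe gave 1.04, and its dimmer kept probes gave 0.41 and 0.13. The list median of 0.37 was the value of SAA2, which lay near the thresholds, at 112 ± 5.46 in RAI2 and 91.9 ± 9.98 in vector cells.

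Of 18 tested genes of IL6, STAT and acute-phase signalling, which is known to raise several complement genes in the liver, 0 passed in any contrast (limma). An unadjusted p under 0.05 in limma was reached by 2 (IFNGR2 and CEBPD) in RAI2 minus vector (5.90% of all genes). In RAI2-4A minus vector 3 did so (IFNGR2, CEBPD and SOCS3, against 3.99%), and in RAI2 minus RAI2-4A 1 (LIFR, against 4.84%). In RAI2 and RAI2-4A minus vector, CEBPD differed by 0.40 and 0.52, IFNGR2 by 0.24 and 0.26, and SOCS3 by 0.21 and 0.37. JAK1 was the lowest of the list there, at -0.68 and -0.61. The median of the 18 was 0.13 in RAI2 minus vector and 0.08 in RAI2-4A minus vector. The brightest were CEBPB, NFKB1 and the shared receptor chain IL6ST, which averaged 2072 ± 437 in RAI2, 1934 ± 652 in RAI2-4A and 1811 ± 649 in vector cells (SD, n = 3 each). Of 25 tested GPI anchor genes, which serve CD55 and CD59, 0 passed in any contrast (limma), also at an unadjusted p under 0.05, and their median was -0.02 in RAI2 minus vector and 0.01 in RAI2-4A minus vector. Among them PIGA, of the first step of the anchor's synthesis, averaged 1361 ± 151 in RAI2, 1383 ± 101 in RAI2-4A and 1224 ± 168 in vector cells.

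**Figure D5:**
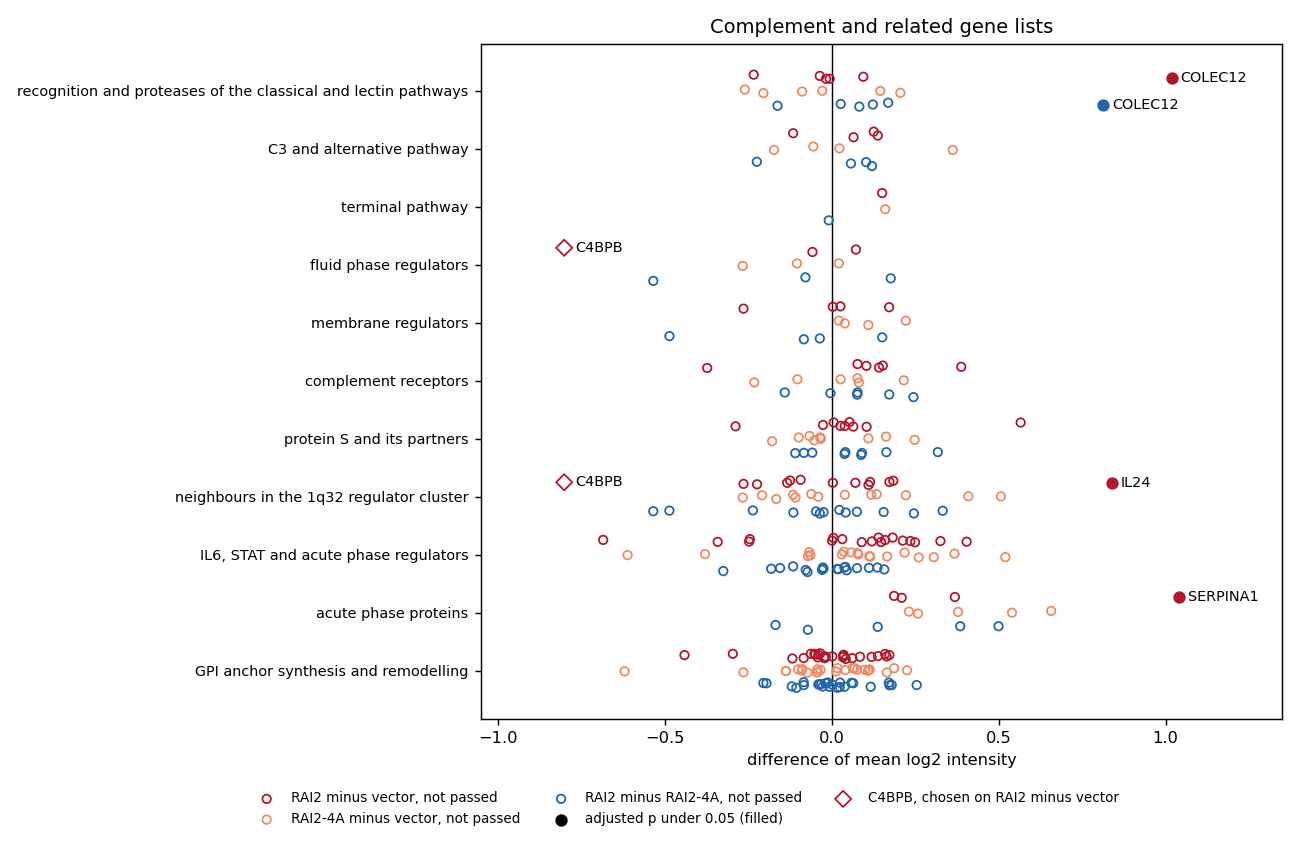
Difference of mean log2 intensity (x axis) of each tested gene of 11 lists (rows) for RAI2 minus vector, RAI2-4A minus vector and RAI2 minus RAI2-4A, with filled points for genes at an adjusted p under 0.05 in limma and an open diamond for C4BPB in the contrast it was chosen on. Filled points are COLEC12, IL24 and SERPINA1 for RAI2 minus vector and COLEC12 for RAI2 minus RAI2-4A. COLEC12 entered the test through its RAI2 arrays alone, so its filled points are descriptions.

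The genes whose levels over the 9 arrays were most like those of C4BPB were sought among 9918 genes above background on every array, as a description of arrays that share their groups. PLAC8 was the most alike (r = 0.944), followed by FAM133A (0.918), the teneurin TENM3 (0.918), C15orf40 (0.905) and the heat shock gene HSPA1B (0.902), which has a near-identical copy. PLAC8 read 4460, 4432 and 5289 in RAI2, 6354, 6748 and 6680 in RAI2-4A, and 6097, 7048 and 7847 in vector replicates 1, 2 and 3, with the RAI2 arrays below all others. Most opposed were STMN3 (r = -0.943), CERCAM (-0.908), the matrix protein TGFBI (-0.907), ZNF362 (-0.906) and RPL30 (-0.903). STMN3, of the stathmin family, read 904, 937 and 863 in RAI2, 685, 613 and 725 in RAI2-4A, and 563, 536 and 396 in vector replicates 1, 2 and 3. Of the other complement regulators CD55 correlated with C4BPB at r = 0.570 and CD59 at r = -0.630.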

How the data were processed

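The authors deposited a table of Illumina bead array intensities, on a linear scale, for 47323 probes and 9 arrays. Per the submitters' processing notes BeadStudio and limma were used, in roles and versions not given in the sources used here. Array medians of 98.5 to 99.5 were read as normalized by the authors. A further 18 columns of signals and detection p, with names that match no single sample, were not used. After leaving out 3 probes with a missing value, background was corrected with limma's normexp (saddle, offset 50) and log2 was taken. Above background means over the array's mode by 1.645 SD of the values below it (density bandwidth 0.03). Probes above it on at least 3 of 9 arrays were kept (22341), and each gene took its brightest kept probe. The probe table gives 1 symbol for 30113 probes, and 8 have several. RefSeq's gene table (GRCh38.p14) held 30074 of them by Entrez ID, changed 0 symbols and gave gene order only.

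limma 3.58.1 in R 4.3.3 fitted all 9 arrays (6 residual degrees of freedom), two-sided, with Benjamini-Hochberg adjustment over 12422 genes at 0.05. The genes, 11 lists and alternatives were chosen with earlier results of these data known. Named are RAI2, the 9 genes, list members past the threshold, from the 3 brightest of each list, and the 5 genes most alike and most opposed to C4BPB; PROS1, and genes at an unadjusted p under 0.05 where few, were added after their values were seen. Alternatives covered background, normalization, filters, probe choice, variance model, weights, blocks and arrays left out. In simulated data for RAI2 minus vector (12422 genes, 200 changed) 99% of changes of 1 log2 unit were called, and 4.33% of calls were false. The simulated noise was independent between arrays, unlike that of the real arrays, and no change under 1 log2 unit was simulated. These shares therefore give neither the error rate of the real calls nor the recovery of smaller differences. Same-numbered RAI2 and RAI2-4A arrays had residual correlations of 0.445, 0.437 and 0.231, so the numbers were taken to pair these groups, from the data and not the labels. With vector they did not. The value of 0.437 is that of the second arrays, which also stood apart from their groups, and these readings were not separated. The number of arrays limits the precision.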

Additional observations from a re-analysis of the deposited data

How the results depend on the processing

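C4BPB kept its sign in all 3 contrasts under every alternative run. In RAI2 minus vector, the contrast it was chosen on, it was called under 15 of 23 alternatives, which is a description. Among those without the call were the background at the mode, the mean of probes and every probe on its own. C4BPB in RAI2 minus RAI2-4A passed the threshold with array weights (-0.51), with the replicate block over RAI2 and RAI2-4A (-0.53) and with only the groups compared (-0.53), and over single arrays left out it ran from -0.58 to -0.47; in the other contrasts the same range was -0.96 to -0.67 for RAI2 and -0.42 to -0.14 for RAI2-4A. The replicate block over RAI2 and RAI2-4A made calls of C4BPB and CD55, and the block over all groups made neither and ended the call of IL24; among the other genes refitted with a block (RAI2, CD59, CFI, C1R, PROS1, COLEC12 and SERPINA1) no call changed. Genes past the threshold in RAI2 minus vector numbered 52, and 33 with the mean of probes, 88 with array weights and 21 to 56 with single arrays left out. In RAI2-4A minus vector they numbered 11, and 6 with the stricter filter, 7 with every probe on its own, 25 with array weights, 7 with only the groups compared, 17 without the 3 arrays that stood apart and 5 to 11 with single arrays left out. In RAI2 minus RAI2-4A they numbered 47, and 25 with the stricter filter, 79 with array weights, 98 with the replicate block and 30 to 77 with single arrays left out. Some differences near 0 changed sign. For RAI2-4A minus vector these were CD59 with cyclic loess (-0.016), C1R with no filter (-0.10) and CFI without the 3 arrays that stood apart (-0.080), and for RAI2 minus RAI2-4A it was C1R with no filter (0.015). With single arrays left out, RAI2-4A minus vector ran from -0.081 to 0.073 for CD59 and from -0.032 to 0.11 for CFI, and RAI2 minus RAI2-4A ran from -0.17 to 0.017 for CFI. The causes were not tested. CFI, C1R, C1S, SERPING1 and C4BPA lay near or under the thresholds, so signal over background limits what their probes can show. The stricter filter tested none of CFI, C1R, COLEC12 and SERPINA1. A fit with slides as blocks could not be made, since slides are not given in the sources used here.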
